A study of Homo sapiens with 18 samples.

Results

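The genes described here are the inhibitors of cyclin-dependent kinases (CDKs) of the p21 and p16 families, taken by name: CDKN1A, CDKN1B, CDKN1C, CDKN2A, CDKN2B, CDKN2C and CDKN2D. All 7 were found among the 38716 gene symbols of the deposited tables. They were measured by mRNA-seq and by Ribo-seq, which sequences the stretches of mRNA that a ribosome shields from nuclease, in IMR90, a fibroblast strain from human fetal lung. Each assay had 3 replicates of 3 states, which makes 18 libraries. Young cells were proliferating, old cells had been passaged until they stopped dividing (replicative senescence), and ICM cells had been treated with inflachromene, a small molecule inhibitor of the chromatin proteins HMGB1 and HMGB2. The labels gave neither the concentration nor the duration of the treatment, nor whether young cells received its vehicle. Per the study's methods, both assays were run on the same 9 cycloheximide lysates, and whether these came from 1 cell isolate or several was not stated.

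CDKs drive a cell from one phase of its cycle to the next when bound to a cyclin. The CIP/KIP inhibitors p21 (CDKN1A), p27 (CDKN1B) and p57 (CDKN1C) bind cyclin-CDK complexes of several kinds. The INK4 inhibitors p16 (CDKN2A), p15 (CDKN2B), p18 (CDKN2C) and p19 (CDKN2D) bind CDK4 and CDK6 and keep them from D-type cyclins. p21 and p16 are the inhibitors most often used to mark senescent fibroblasts. CDKN2A also encodes ARF, which binds MDM2 and is read from an alternative first exon in another frame.

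Footprints were counted in the coding sequence (CDS), and 3 properties of these sequences bear on how the values can be read. The start codons of CDKN1A and CDKN2C and of both CDKN2A frames are shown with their 12 bases before and 9 after (Gencode annotation on GRCh37, coding strand, start codon in capitals). Which annotation set the CDS bounds of the deposited counts was not given in the sources used here.
CDKN1A, chr6:36651879-36651881, plus strand: agaggaggcgccATGtcagaaccg
CDKN2A p16 frame, chr9:21974824-21974826, minus strand: gcggggagcagcATGgagccggcg
CDKN2A ARF frame, chr9:21994328-21994330, minus strand: ggcggcgagaacATGgtgcgcagg
CDKN2C, chr1:51436041-51436043, plus strand: ggaccctaaagaATGgccgagcct

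The p16 CDS of 468 bases and the ARF CDS of 396 bases shared 203 bases at chr9:21971005-21971207, in different frames. This was 43.4% of the p16 and 51.3% of the ARF CDS. The tables hold a single symbol, CDKN2A, so a CDKN2A value cannot be split between p16 and ARF. Which CDKN2A transcripts were counted was not stated.

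Of all windows of 28 bases, about the length of a footprint, 16.8% of those in CDKN2A and 19.1% of those in its neighbour CDKN2B occurred in the other gene, and a footprint from such a window cannot be assigned to either. Estimated counts that are not whole, such as the 101.5 CDKN2A and 21.5 CDKN2B footprints of young replicate 3, stood in both genes. For CDKN1C, 2.48% of windows occurred in other coding genes, and for CDKN1A, CDKN1B, CDKN2C and CDKN2D none did. In the Gencode transcript used for each gene, CDKN2C and CDKN2B held start codons before the main one whose reading frames closed within the 5′ UTR. The first of the 2 in CDKN2C, 90 bases before the start codon at chr1:51435951-51435953 (plus strand), opens a frame of 18 codons and is shown because footprints of CDKN2C in young cells lay mostly in its 5′ UTR. The bounds of the counted 5′ UTR were not stated, so these footprints need not lie in or near that frame.
CDKN2C upstream start codon: tctccgATGccatcatgc

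Levels are given as CPM, counts scaled to one library size from the coding-gene reads of an mRNA-seq library or the CDS reads of a Ribo-seq library, with the mean ± SD of 3 replicates. Between 7902427 and 14144455 coding reads stood behind an mRNA-seq library, and between 46239 and 1718521 CDS reads behind a Ribo-seq library, so the footprint values are far less precise. The Ribo-seq libraries of young replicate 1, old replicate 2 and ICM replicate 3 stood apart. They were the shallowest of their groups, with 54421, 54708 and 46239 CDS reads. The summed footprints of 10 genes with mRNA at least 30 times higher in ICM than in young and old cells came to 644 CPM in young replicate 1 and 769 CPM in old replicate 2, against 65.8 to 92.7 CPM in the other young and old libraries. Those of 43 genes with mRNA at least 30 times higher in young than in ICM cells came to 1733 CPM in ICM replicate 3, against 107 and 355 CPM in the other ICM libraries. Fitted footprint results are therefore also given without these 3 lysates.

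Defining markers of fibroblasts were present in every state. The summed mRNA of 8 fibroblast genes, among them COL1A1, VIM and FN1, was 31064 to 35271 CPM in young, 27660 to 32568 CPM in old and 12615 to 12758 CPM in ICM. Of 7 markers of other cell types, CDH5 had no mRNA read in any library, EPCAM, CDH1, PTPRC and PECAM1 had means under 1 CPM, and KRT18 had means of 282 CPM in young, 222 CPM in old and 30.7 CPM in ICM. CD68 stood at 20.9, 31.5 and 60.5 CPM. The part of these markers in the results was not tested. In bulk samples, fewer cells that express a gene and less RNA per cell cannot be told apart.

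CDKN1A rose in both old and ICM cells, in mRNA and in footprints, and stood highest in ICM. Its mRNA stood at 532, 525 and 510.1 CPM in the young libraries, at 1481, 1412 and 1533 CPM in the old ones and at 3329, 3544 and 3404 CPM in the ICM ones. The 3 states did not overlap. The log2 change was 2.69 (SE 0.07) in ICM vs young, which is 6.44-fold, 1.59 (SE 0.06) in old vs young, which is 3.02-fold, and 1.10 (SE 0.06) in ICM vs old (edgeR adjusted p 1.17e-19, 2.08e-15 and 5.91e-13). Of the 13173 genes tested, 179 rose more than CDKN1A in ICM and 457 in old cells, each against young.

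**Figure D1:**
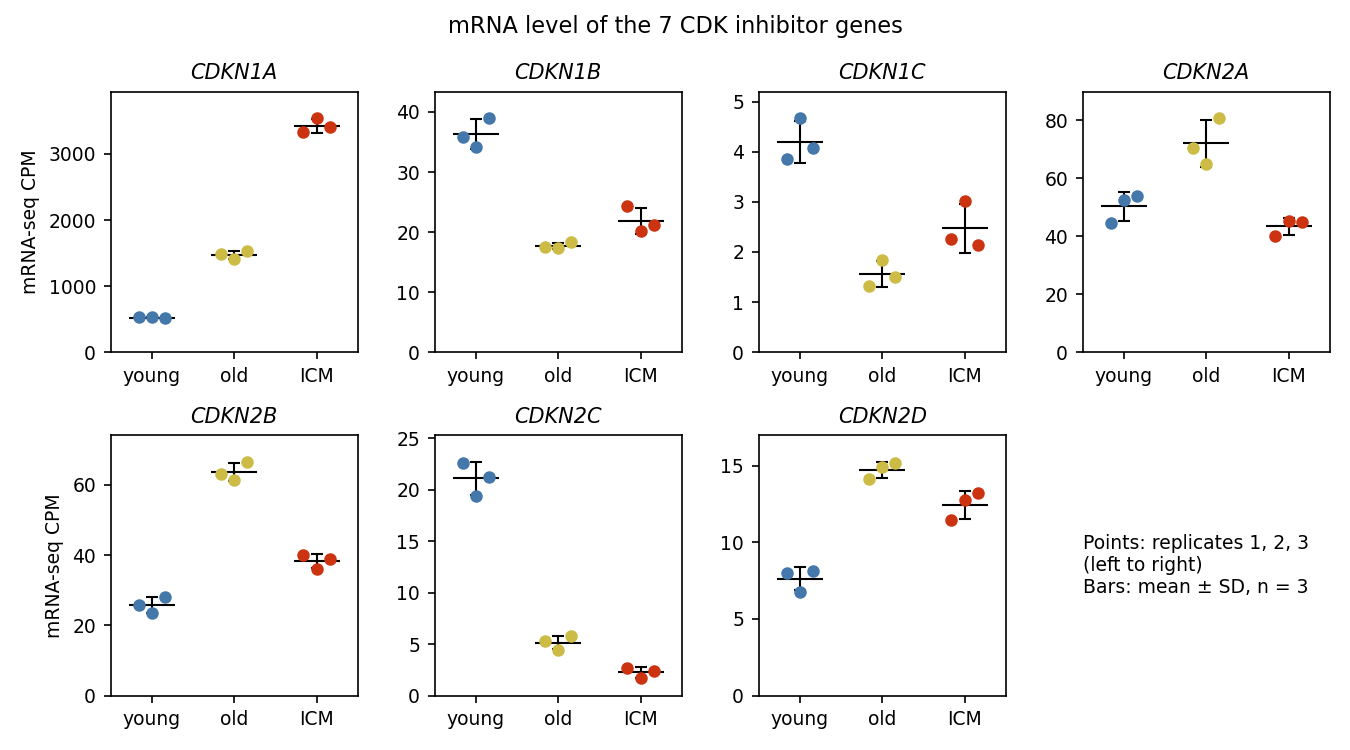
mRNA level of each CDK inhibitor gene (y axis, CPM, linear from 0 with its own range in each panel) in young, old and ICM cells (x axis). Points are the 3 replicates and bars the mean ± SD. CDKN1A climbs from a mean of 522 to 1475 and 3426 CPM, CDKN2A and CDKN2B are highest in old cells, and CDKN2C falls from 21.1 to 5.16 and 2.27 CPM.

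The other CIP/KIP genes went the opposite way. CDKN1B, whose product p27 is held in check mainly through its degradation, stood at 35.8, 34.2 and 39.0 CPM in young, 17.5, 17.3 and 18.3 CPM in old and 24.3, 20.2 and 21.1 CPM in ICM. It fell in ICM (log2 change -0.75, SE 0.09, edgeR adjusted p 7.15e-08) and in old (-0.94, SE 0.09, adjusted p 4.51e-09). The ICM libraries all lay above the old ones, but the difference did not pass the test (log2 change 0.19, SE 0.09, edgeR adjusted p 0.0823). CDKN1C, an imprinted gene best known from development, was the least abundant CIP/KIP mRNA at 3.86, 4.67 and 4.06 CPM in young, 1.32, 1.84 and 1.51 CPM in old and 2.26, 3.02 and 2.13 CPM in ICM. These values rest on 13 to 53 reads per library. It fell in ICM (log2 change -0.81, SE 0.20, edgeR adjusted p 0.000964) and in old (-1.31, SE 0.22, adjusted p 1.48e-05). In ICM vs old its log2 change was 0.51 (SE 0.24, edgeR adjusted p 0.0673), and without old replicate 2 it was 0.66 and passed (adjusted p 0.0490).

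Among the INK4 genes, CDKN2A and CDKN2B, which lie side by side on chromosome 9 in GRCh37 (21967751 to 21995300 and 22002902 to 22009304, both on the minus strand), were both highest in old cells. CDKN2A mRNA was 44.7, 52.4 and 53.8 CPM in young, 70.5, 64.9 and 80.8 CPM in old and 40.0, 45.2 and 45.1 CPM in ICM. Old cells lay above the others, whereas young and ICM cells overlapped. CDKN2A rose in old vs young (log2 change 0.60, SE 0.09, edgeR adjusted p 2.15e-06) and was lower in ICM than in old (-0.85, SE 0.09, adjusted p 1.28e-08). In ICM vs young it was called lower (log2 change -0.25, SE 0.09, edgeR adjusted p 0.0174). That call was lost with CDS reads alone (log2 change -0.13, adjusted p 0.288) and without young replicate 2, young replicate 3 or ICM replicate 1 (log2 changes -0.22, -0.20 and -0.19, adjusted p 0.0721, 0.0777 and 0.108).

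CDKN2B stood at 25.8, 23.7 and 28 CPM in young, 63.0, 61.5 and 66.7 CPM in old and 40.0, 36.1 and 39.0 CPM in ICM, with no overlap between states. Its log2 change was 1.40 (SE 0.08) in old vs young and 0.55 (SE 0.08) in ICM vs young, and it was lower in ICM than in old by 0.85 (SE 0.07) (edgeR adjusted p 7.11e-13, 3.26e-06 and 8.51e-10). With CDS reads alone, the log2 change in ICM vs young was 0.29 and did not pass (edgeR adjusted p 0.0830). CDKN2B-AS1, a long non-coding RNA that overlaps 593 exonic bases of CDKN2A on the opposite strand, was listed only among non-coding reads, with 7.83 to 20.3 reads per mRNA-seq library. Whether the counting used strand was not stated, so reads of CDKN2A and of CDKN2B-AS1 may not be separated there.

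CDKN2C fell and CDKN2D rose in both old and ICM cells. CDKN2C, the gene of p18 and a target of E2F factors, stood at 22.7, 19.4 and 21.3 CPM in young, 5.28, 4.45 and 5.76 CPM in old and 2.72, 1.70 and 2.39 CPM in ICM. The states did not overlap. It fell by 3.21 on the log2 scale (SE 0.15) in ICM vs young, by 1.94 (SE 0.13) in old vs young and by 1.27 (SE 0.19) in ICM vs old (edgeR adjusted p 1.38e-14, 1.14e-11 and 4.86e-06). In ICM vs young, 231 of 13173 genes fell more. On the opposite strand, an antisense transcript overlapped 617 exonic bases of CDKN2C, and the RNA DINOL overlapped 146 exonic bases of CDKN1A. CDKN2D was at 7.97, 6.79 and 8.13 CPM in young, 14.1, 14.9 and 15.1 CPM in old and 11.4, 12.7 and 13.2 CPM in ICM. It rose in ICM (log2 change 0.68, SE 0.12, edgeR adjusted p 2.54e-05) and in old (1.05, SE 0.12, adjusted p 4.96e-08), and was lower in ICM than in old (-0.37, SE 0.10, adjusted p 0.00364).

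In mRNA-seq, 7 of 7 members were called when ICM was compared with young cells (3 up, 4 down), where 71.0% of all tested genes were called (34.9% up, 36.1% down). Between old and young cells 7 of 7 were called (4 rose and 3 fell), against 66.1% of all genes (32.4% higher, 33.7% lower). Between ICM and old cells 5 of 7 were called (1 rose and 4 fell), against 63.3% of all genes (30.7% higher, 32.6% lower). Being called was thus the rule for genes of these cells. Lack of overlap between the replicates was common too. It held for 61.1%, 56.1% and 56.7% of 17268 genes in these comparisons, and for 6, 7 and 7 of the 7 members. The median log2 change of the members was -0.25, 0.60 and -0.37 in these comparisons, and that of all tested genes was -0.01 in each. Each comparison shares its samples with the others, so the directions are given side by side. CDKN1A, CDKN2B and CDKN2D were called up and CDKN1B, CDKN1C and CDKN2C down in both comparisons with young cells, and CDKN2A was called in opposite directions.

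**Figure D2:**
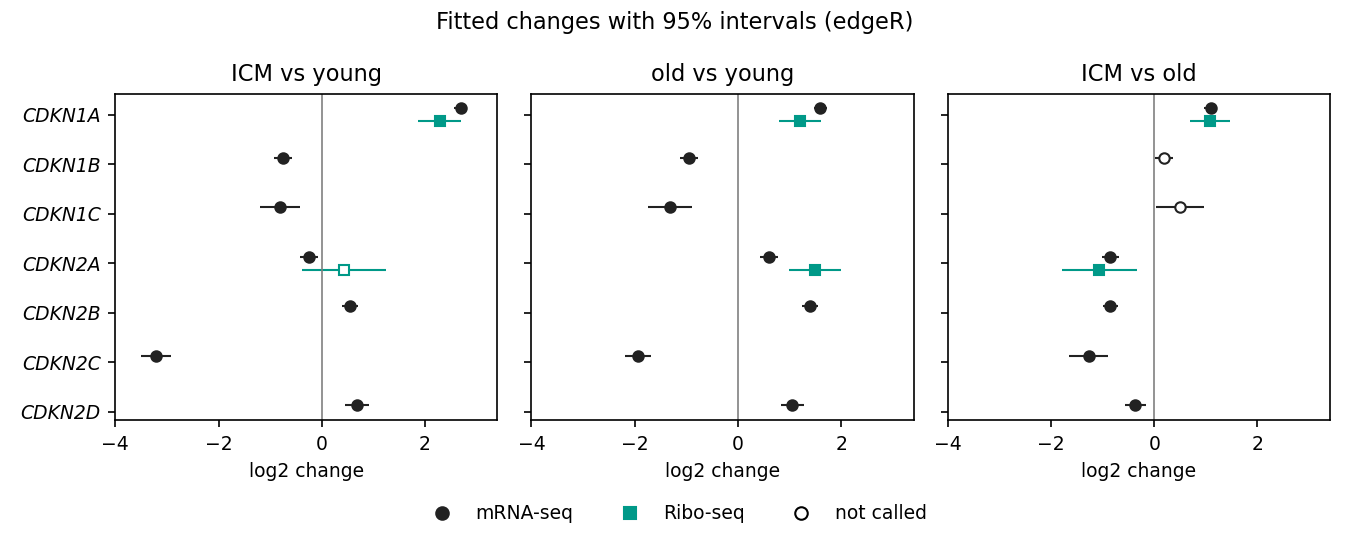
Log2 changes fitted by edgeR (x axis) with 95% intervals for each CDK inhibitor gene (y axis) in the 3 comparisons. Circles are mRNA-seq, squares Ribo-seq, and open symbols did not pass an adjusted p of 0.05. Ribo-seq values stand only for CDKN1A and CDKN2A, which had enough footprints to be tested, and CDKN2C lies farthest left, at -3.21 in ICM vs young.

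Of the 7 members, 2 passed the filter on low footprint counts, CDKN1A and CDKN2A. CDKN1A had 31, 226 and 490 CDS footprints in young, 1432, 34 and 357 in old and 370, 112 and 90 in ICM. Scaled to depth this was 570, 330 and 285 CPM in young, 856, 621 and 612 CPM in old and 1644, 1418 and 1946 CPM in ICM, with no overlap between the states. Against young cells, CDKN1A was called up in ICM (log2 change 2.28, SE 0.21) and in old (1.20, SE 0.21), and it was higher in ICM than in old (1.08, SE 0.20) (edgeR adjusted p 2.60e-10, 2.00e-05 and 0.000118). Without the 3 lysates that stood apart these values were 2.25, 1.43 and 0.82, and each was called. With every library thinned to the shallowest, the change in old vs young was 0.63 and did not pass (edgeR adjusted p 0.135).

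CDKN2A had 5, 36 and 101.5 footprints in young, 278, 4 and 83 in old and 23, 1 and 3.5 in ICM. This was 91.9, 52.6 and 59.1 CPM in young, 166, 73.1 and 142 CPM in old and 102, 12.7 and 75.7 CPM in ICM, so that the states overlapped. Old vs young was called (log2 change 1.49, SE 0.26, edgeR adjusted p 2.42e-05) but lost the call with DESeq2 (log2 change 1.25, adjusted p 0.0706). ICM vs young was not called (log2 change 0.42, 95% interval -0.39 to 1.24, edgeR adjusted p 0.485). ICM vs old was called at the edge of the threshold (log2 change -1.06, SE 0.37, edgeR adjusted p 0.0493). The call was lost under RLE scaling (-1.05, adjusted p 0.0507), with DESeq2 (-1.04, adjusted p 0.321), with only the compared groups in the fit (-0.999, adjusted p 0.123), and without young replicate 2 or 3, old replicate 1 or 3 or ICM replicate 2 (adjusted p 0.1003, 0.0960, 0.308, 0.126 and 0.175). Without the 3 lysates that stood apart, CDKN2A was called in old vs young (log2 change 1.60, edgeR adjusted p 1.93e-06) and in ICM vs old (-1.24, adjusted p 0.0231) and was not called in ICM vs young (0.36, adjusted p 0.595).

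In Ribo-seq, 1 of the 2 members tested was called in ICM vs young, against 26.6% of all 4643 genes (13.7% up, 12.9% down). Both were called between old and young cells, against 36.3% of all genes (19.3% higher, 17.0% lower), and both between ICM and old cells, against 13.4% (5.79% higher, 7.62% lower). Because low-count members could pass only where they were high, these counts do not describe the family. The other members are given as read numbers. CDKN2B had 1, 7 and 21.5 footprints in young, 101, 0 and 35 in old and 4, 0 and 0.5 in ICM. That was 10.2 to 18.4 CPM in young, 60.4 and 60.0 CPM in old replicates 1 and 3, and up to 17.8 CPM in ICM. The 0 of old replicate 2 allowed up to 54.8 CPM and that of ICM replicate 2 up to 38.0 CPM. In ICM replicate 3, with 0.5 reads, 3 reads would be 64.9 CPM, which is above the old level, so a difference between ICM and old cells was not detectable there. CDKN2B entered the fit of old against young cells alone, where it rose by 2.37 on the log2 scale (SE 0.32, edgeR adjusted p 5.29e-09), and its change was 2.45 (SE 0.37) without the 3 lysates that stood apart (edgeR adjusted p 2.88e-06). A gene can enter such a fit through the libraries where it is high, so these values are a description.

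CDKN1B had 76 footprints in the young, 53 in the old and 9 in the ICM libraries, in counts rounded to whole reads. Over the pooled reads of a state these were 30.9 CPM (95% interval 24.4 to 38.7, exact Poisson, counting error only), 22.9 CPM (17.2 to 29.99) and 25.7 CPM (11.7 to 48.8), and the intervals overlapped. CDKN1C had 3, 3 and 15 footprints in young, 2.5 in old replicate 1 and 1 in ICM replicate 1, and 0 in the other old and ICM libraries. CDKN2C had 6 CDS footprints over the young, 2 over the old and 1 over the ICM libraries, and CDKN2D had 10, 14 and 2. At this depth no difference between states was detectable for CDKN2C or CDKN2D.

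**Figure D3:**
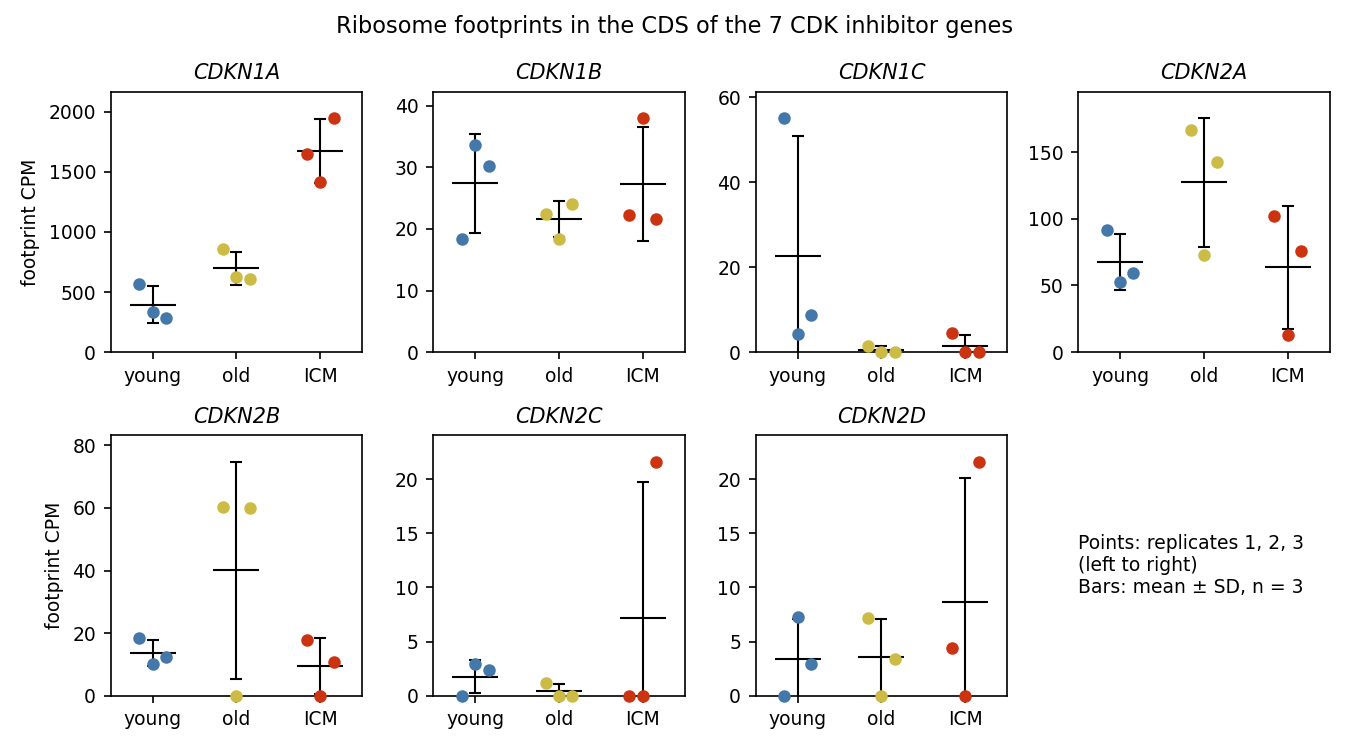
Footprints in the CDS of each CDK inhibitor gene (y axis, CPM, linear from 0 with its own range in each panel) in young, old and ICM cells (x axis). Points are the 3 replicates and bars the mean ± SD, drawn only above 0. CDKN1A separates the states, whereas CDKN1C, CDKN2C and CDKN2D rest on a few reads, so that the 1 read of CDKN2C in ICM replicate 3 stands at 21.6 CPM.

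Footprints were next set against mRNA to ask whether ribosome occupancy changed apart from mRNA level (translational efficiency). Neither CDKN1A nor CDKN2A was called in any comparison by edgeR, and DESeq2 called neither. Of all 4618 genes, 2.45% were called in ICM vs young (1.41% higher, 1.04% lower), 1.45% in old vs young (0.845% higher, 0.606% lower) and 0.260% in ICM vs old (0.0650% higher, 0.195% lower). At an unadjusted p under 0.05 the counts were 0, 1 and 0 of 2. The efficiency of CDKN1A changed by -0.41 (95% interval -0.82 to -0.00) in ICM vs young, by -0.37 (-0.78 to 0.04) in old vs young and by -0.04 (-0.44 to 0.36) in ICM vs old on the log2 scale. Without the 3 lysates that stood apart these values were -0.48, -0.26 and -0.22, and none was called (edgeR adjusted p 0.139, 0.506 and 0.623). The single unadjusted p under 0.05 was that of CDKN2A in old vs young, at 0.95 on the log2 scale (SE 0.30, edgeR adjusted p 0.118). It passed the threshold with the compared groups alone (log2 change 0.91, edgeR adjusted p 0.00487) and without the lysate term (0.99, adjusted p 0.00465). It also passed without ICM replicate 1, 2 or 3 (edgeR adjusted p 0.00750, 0.00879 and 0.0494). With CDS reads alone for mRNA (log2 change 0.70, edgeR adjusted p 0.343) and under RLE scaling (0.88, adjusted p 0.176) it did not pass. Nor did it pass without the 3 lysates that stood apart (log2 change 0.98, edgeR adjusted p 0.0687). Of 17 alternatives, 6 changed the outcome, among them the threshold of 0.15.

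Within a state, the ratio of CDS footprint CPM to CDS mRNA CPM ordered the members differently from their mRNA. In young cells, CDKN1A had a ratio of 2.10, above that of 92.0% of 10234 genes. Its replicates were 3.17 in the lysate that stood apart and 1.70 and 1.49 in the others. CDKN2C had 0.152 (0, 0.328 and 0.196), above that of 0.967% of genes. CDKN2C had the lowest ratio of the members in young cells, with 6 footprints against 214 mRNA reads in the CDS. The highest was that of CDKN1C at 6.02, from 21 footprints, with replicates of 17.9 in the lysate that stood apart and 0.927 and 2.46 in the others. In old cells the ratio of CDKN2C was 0.1503, from 2 footprints against 59 reads, and that of CDKN1A was 1.22. In ICM cells CDKN2C stood at 5.37, above that of 99.1% of 5427 genes, but this rested on 1 footprint, in ICM replicate 3, and CDKN1A stood at 1.28. With so few footprints the ratios of CDKN2C do not order the states. Over all genes, the median ratios of the young, old and ICM cells were 0.949, 0.909 and 1.13.

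Reads outside the CDS showed where on these transcripts the ribosomes were. In young cells, 15 of 21 CDKN2C footprints (71.4%, 95% interval 47.8% to 88.7%, exact binomial, counting error only) lay in the 5′ UTR. The replicates had 1, 2 and 12 of them, beside 0, 2 and 4 in the CDS. The Gencode transcript with the upstream start codon shown above has a 5′ UTR of 124 bases. Which transcripts defined the deposited 5′ UTR was not stated. In young cells it held 385 CDKN2C mRNA reads, against 214 in the CDS of 504 bases. The counted 5′ UTR may thus be longer than 124 bases or include other transcripts, and its footprints need not lie on the transcript shown. Counts per region do not tell whether these footprints lay at that start codon. The 5′ UTR also held 62.2% of CDKN2C mRNA reads in young cells (58.2% to 66.0%), and for the other members at most 9.09% of young footprints lay there. Across all genes, 2.78% to 10.2% of the coding-gene footprints of a young library were in 5′ UTRs.

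CDKN1A footprints lay in the CDS in 96.0%, 94.5% and 99.7% of cases in young, old and ICM cells, although the CDS held only 23.4%, 24.1% and 24.0% of its mRNA reads. The 5′ UTR held 1, 11 and 11 of 34, 238 and 506 CDKN1A footprints in young, 38, 1 and 2 of 1513, 40 and 376 in old, and 0 of 370, 114 and 90 in ICM. The 0 of 574 over the pooled ICM libraries allows a share of up to 0.523% if taken as 3 reads, or 0.641% as the exact binomial limit. The pooled young share was 2.96% (95% interval 1.88% to 4.40%, exact binomial) and the old share 2.13% (1.53% to 2.87%). These limits cover counting error only. Over the libraries, an exact permutation test gave p 0.1 for ICM vs young and for ICM vs old, the smallest value it can reach. Most of these ICM reads are from replicate 1, whose 0 allows up to 0.811%. The 0 of replicates 2 and 3 allows up to 2.63% and 3.33%, which is above each old share (2.51%, 2.5% and 0.532%) and above the lowest young share (2.17%), so a difference in these libraries was not detectable at this depth. In the same ICM libraries, 2.43% to 5.36% of all coding-gene footprints were in 5′ UTRs, and the 5′ UTR share of CDKN1A mRNA reads was 17.0% in ICM and 13.8% in young. The old libraries held 4.89%, 44.7% and 13.8% of all coding-gene footprints in 5′ UTRs, so old replicates 2 and 3 were unusual in this respect. The part of this in the old CDKN1A share was not tested.

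**Figure D4:**
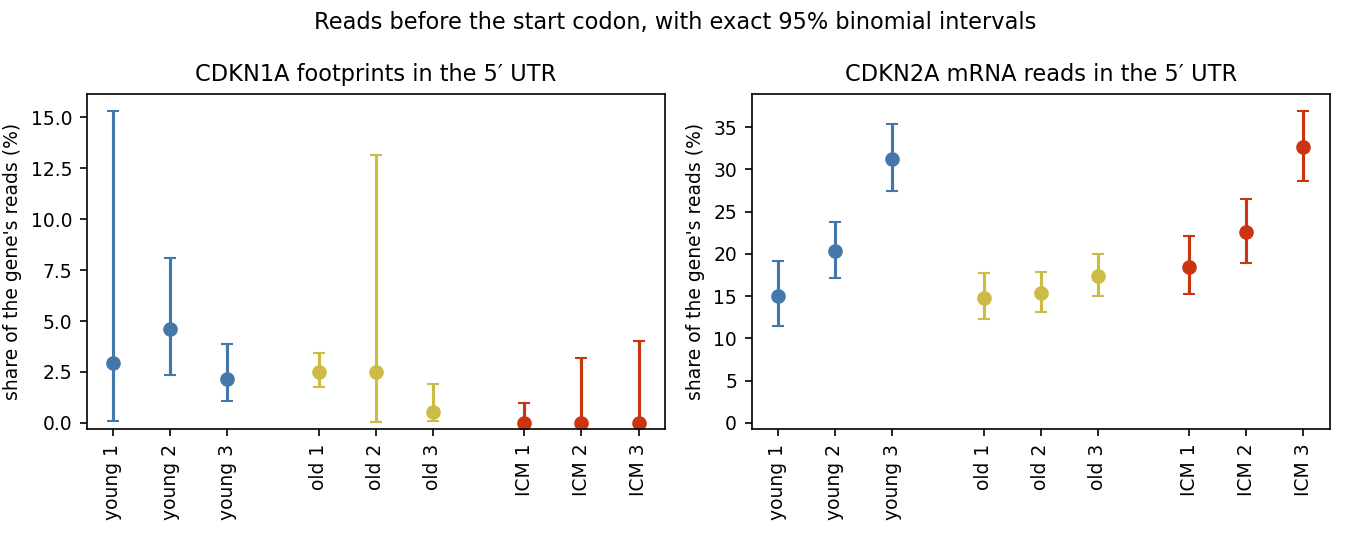
Share of reads before the start codon (y axis, percent of the gene's UTR and CDS reads) in each library (x axis), with exact 95% binomial intervals. Left, CDKN1A footprints, at 0 in the 3 ICM libraries. Right, CDKN2A mRNA reads, which range from 15.0% to 31.3% in young, 14.8% to 17.4% in old and 18.5% to 32.7% in ICM.

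For CDKN2A, which has alternative first exons for p16 and ARF, the 5′ UTR share of mRNA reads was 15.0%, 20.3% and 31.3% in young, 14.8%, 15.4% and 17.4% in old and 18.5%, 22.5% and 32.7% in ICM. The spread between replicates of a state was as large as the differences between states. Across all genes the 5′ UTR share was also highest in replicate 3 of each state, at 12.3%, 10.4% and 13.5%.

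Levels can be compared between genes only per length, so CDS reads were divided by the length of the CDS and scaled to the library's CDS reads (CPM per kilobase). For CDKN2A the length was that of the p16 CDS, although its reads may come from both p16 and ARF. With the 661 bases that both frames cover together, its mRNA level would be 74.4 ± 8.48 in young, 124 ± 17.1 in old and 69.7 ± 3.08 in ICM, still second to CDKN1A. On this scale the mRNA of young cells was ordered CDKN1A (383 ± 15.0), CDKN2A (105 ± 11.98), CDKN1B (38.8 ± 2.40), CDKN2B (28.7 ± 4.70), CDKN2C (22.8 ± 4.79), CDKN2D (12.8 ± 0.355) and CDKN1C (4.14 ± 0.924), and of these neighbours only CDKN2B and CDKN2C overlapped between replicates. In old cells the order was CDKN1A (1162 ± 122), CDKN2A (176 ± 24.1), CDKN2B (65.1 ± 8.88), CDKN2D (25.9 ± 1.39), CDKN1B (20.2 ± 2.04), CDKN2C (5.26 ± 0.713) and CDKN1C (1.70 ± 0.299), with no neighbours overlapping. In ICM cells it was CDKN1A (2650.3 ± 56.6), CDKN2A (98.4 ± 4.35), CDKN2B (36.4 ± 1.47), CDKN1B (23.7 ± 2.19), CDKN2D (21.9 ± 2.27), CDKN2C (2.67 ± 1.30) and CDKN1C (2.53 ± 1.04), where CDKN1B overlapped CDKN2D and CDKN2C overlapped CDKN1C. CDKN1A and CDKN2A led in every state.

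CDKN1A made up a larger share of the summed mRNA level of the 7 genes in old than in young cells and the largest in ICM. Its share was 64.9%, 64.1% and 64.1% in the young libraries, 80.1%, 79.9% and 79.5% in the old ones and 93.4%, 93.4% and 93.6% in the ICM ones. The INK4 share fell accordingly, from 28.4% ± 0.992 in young to 18.7% ± 0.324 in old and 5.62% ± 0.123 in ICM, while the INK4 level itself stood at 169 ± 13 CPM per kilobase in young, 272 ± 33.5 in old and 159 ± 5.45 in ICM. In footprints, CDKN1A held 74.9% ± 3.03 in young cells, 78.1% ± 8.08 in old cells and 93.7% ± 2.86 in ICM cells, and young and old cells overlapped. The mRNA level of CDKN1A was 3.67 ± 0.292 times that of CDKN2A in young, 6.64 ± 0.216 times in old and 26.9 ± 1.065 times in ICM, or 5.18 ± 0.412, 9.37 ± 0.305 and 38.1 ± 1.50 times with the CDKN2A length of both frames.

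**Figure D5:**
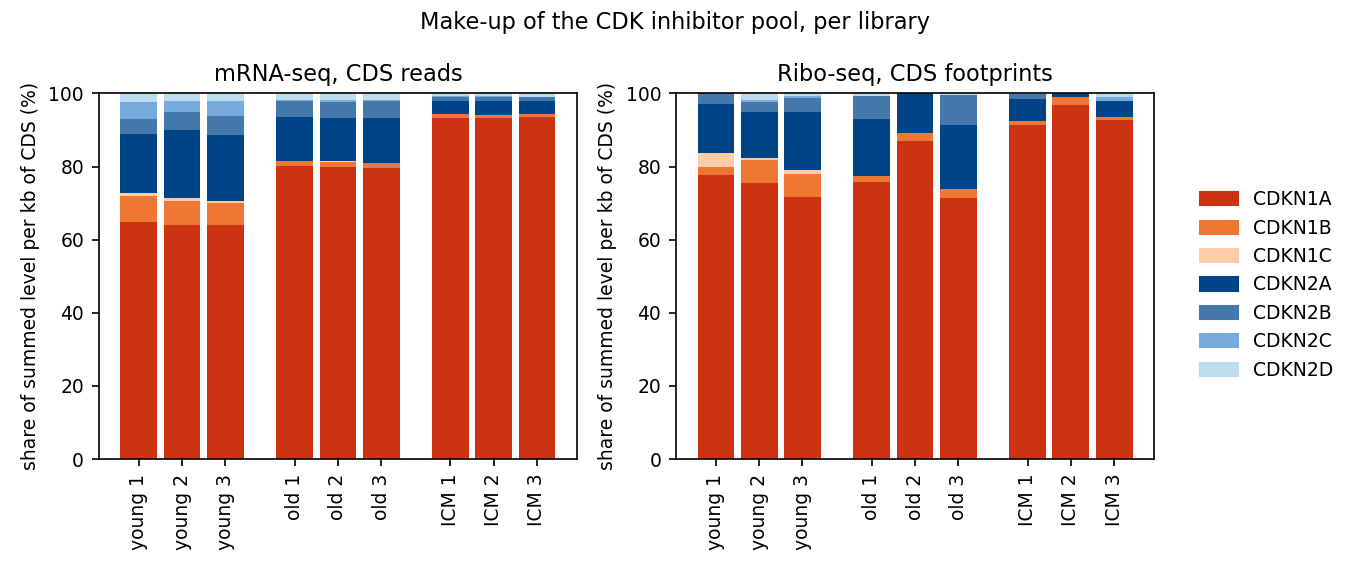
Share of each CDK inhibitor gene in the summed level of all 7 (y axis, percent, from reads per kilobase of CDS) in each library (x axis), for mRNA-seq (left) and Ribo-seq (right). Red and orange are CIP/KIP genes and blue INK4 genes. CDKN1A takes 64.1% to 64.9% of the mRNA sum in young and 93.4% to 93.6% in ICM libraries.

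The kinases and cyclins that these inhibitors bind are given for comparison, as part of a list of 67 partners and regulators. Of the kinases that INK4 proteins bind, CDK4 fell in mRNA to a like extent in ICM and in old (log2 change -1.05, SE 0.08, and -1.07, SE 0.08). CDK6 mRNA rose in both (0.77, SE 0.07, and 1.51, SE 0.07, with edgeR adjusted p 2.93e-09 and 6.10e-14). CDK6 footprints also rose, by 1.55 (SE 0.30) in ICM and 1.80 (SE 0.22) in old on the log2 scale. CDK1, the mitotic kinase, fell by 6.18 (SE 0.19) in ICM and by 1.52 (SE 0.11) in old. CDK2 fell by 1.50 (SE 0.08) in ICM and was not called in old (log2 change -0.16, edgeR adjusted p 0.0559). The D-type cyclins CCND1 and CCND3 rose in both (0.85 and 1.85 in ICM, 2.15 and 1.24 in old), whereas CCND2 was -0.27 in ICM (edgeR adjusted p 0.0227) and 3.37 in old. Cyclin A2 (CCNA2) fell by 3.70 and 1.26, cyclin E2 (CCNE2) by 2.86 and 0.61, and PCNA, which p21 also binds, by 0.89 and 0.81. CCNE1 was not called in ICM (0.11) and was called up in old (0.40, edgeR adjusted p 0.0114), a call lost without young replicate 2 (log2 change 0.30, edgeR adjusted p 0.0845). The CCND2 call in ICM was likewise lost with CDS reads alone and without young replicate 2 or ICM replicate 3 (adjusted p 0.0857, 0.0568 and 0.0989), and CDK2 in old vs young was called without old replicate 2 (-0.18, adjusted p 0.0487).

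Per kilobase of CDS, the summed mRNA level of CDKN1A, CDKN1B and CDKN1C was 1.33 ± 0.1001 times that of CDK1, CDK2, CDK4 and CDK6 in young, 6.20 ± 0.898 times in old and 18.5 ± 0.768 times in ICM cells. The INK4 sum was 0.772 ± 0.109 times that of CDK4 and CDK6 in young, 2.03 ± 0.344 times in old and 1.23 ± 0.0527 times in ICM. With the CDKN2A length of both frames it was 0.632 ± 0.0856, 1.65 ± 0.274 and 1.01 ± 0.0455 times. In footprints the young libraries had INK4 ratios of 1.72, 1.03 and 0.847, the old ones 1.79, 0.518 and 1.43 and the ICM ones 0.951, 0.0738 and 1.02, so that the states overlapped and the order seen in mRNA did not hold. Their CIP/KIP ratios were 4.73, 2.16 and 1.84 for young, 4.97, 3.56 and 3.20 for old and 9.57, 8.04 and 10.3 for ICM libraries, and young and old overlapped while ICM lay above both. Set against the D-type cyclins, CDKN1A stood at 0.759 ± 0.0361 in young, 0.597 ± 0.0127 in old and 2.39 ± 0.204 in ICM. In footprints this last ratio was 0.807, 0.795 and 0.676 in young, 0.446, 0.383 and 0.263 in old and 1.32, 1.31 and 2.04 in ICM, with no overlap between states in either assay.

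Among regulators of the inhibitors, the mRNA of MDM2, a ubiquitin ligase, rose in ICM (log2 change 0.98, SE 0.07) and was not called in old (0.13, edgeR adjusted p 0.0981) unless old replicate 1 was left out (0.19, adjusted p 0.0412). MYC, which represses CDKN1A and CDKN2B, fell in both (-0.97 and -0.65). Of the Polycomb genes that act on the CDKN2A and CDKN2B locus, EZH2 fell in ICM (-3.29, SE 0.13) and in old (-1.79, SE 0.11), CBX7 rose (1.59, SE 0.13, and 1.17, SE 0.14), and BMI1 was not called (-0.13 and -0.00). SKP2 and CKS1B, which mark p27 for degradation, fell in ICM (-0.87 and -2.21) and in old (-0.36 and -1.40). FOXO3, an activator of CDKN1B, fell by 0.32 and 0.36 (not called in ICM with CDS reads alone, edgeR adjusted p 0.156), and FOXO1 was below the filter.

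Over the whole list, 65 of 67 genes were tested in mRNA-seq. Against young cells, 14 rose and 41 fell in ICM (median log2 change -0.43), and 12 rose and 38 fell in old (-0.34). Between ICM and old cells 17 were higher and 29 lower in ICM (-0.15). The genes called made up 84.6%, 76.9% and 70.8% of those tested, against 71.0%, 66.1% and 63.3% of all genes. The kinase modifiers (CDC25A, CDC25B and CDC25C, which activate CDKs, and WEE1 and PKMYT1, which hold them back) were lower in 5 of 5 cases in each comparison, where 36.1%, 33.7% and 32.6% of all genes were. Of 21 transcriptional regulators tested, 5 rose and 12 fell in ICM, and 4 rose and 14 fell in old. In Ribo-seq 32 of the 67 were tested, and against young cells 5 rose and 9 fell in ICM, and 5 rose and 14 fell in old. Between ICM and old cells 3 were higher and 3 lower. The genes called made up 43.8%, 59.4% and 18.8%, against 26.6%, 36.3% and 13.4% of all genes. CCNB2 was the single list gene called for translational efficiency (log2 change 2.36 in ICM vs young, edgeR adjusted p 0.0491). That call was lost under RLE scaling and with CDS reads alone for mRNA.

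The mRNA-seq patterns most like those of the members were sought among 10814 genes that averaged 5 CPM or more, by Pearson's r of log2(CPM + 1) over the 9 libraries, which share the 3 states, so that r is high for any gene that differs between them in the same order. Nearest to CDKN1A were HM13 (r = 0.999), MVK (0.998) and SURF4 (0.997). HM13 went from 170.1 CPM in young to 299.6 CPM in old and 491 CPM in ICM. Nearest to CDKN1B were NR2C2, MN1 and TRA2B (0.995 to 0.990). Nearest to CDKN2A were LDLRAD2, PXDN and GSN (0.986 to 0.978), and nearest to CDKN2B were ARHGAP29, CCND1 and INPP5A (0.995 to 0.993). CCND1, the gene of cyclin D1, stood at 879 CPM in young, 3657 CPM in old and 1614 CPM in ICM. Nearest to CDKN2C were NEURL1B, CDCA7 and KIF22 (0.997 to 0.996), and nearest to CDKN2D were BMP2, SERINC3 and TMEM9B (0.989 to 0.986). CDKN1C, at a mean of 2.74 CPM, was below the limit.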

How the data were processed

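Cells were lysed in polysome buffer with cycloheximide, and each lysate gave a Ribo-seq and a poly(A) mRNA-seq library. The authors deposited estimated counts per gene symbol and library, split into 5′ UTR, CDS, 3′ UTR and non-coding reads. Of the non-zero values, 14.1% to 23.2% in Ribo-seq and 20.0% to 21.1% in mRNA-seq were not whole. The submitters' processing notes name STAR 2.6.0c, featureCounts, DESeq2, deepTools and GRCh37 without their roles. How reads with several matches were shared and whether strand was used is not given in the sources used here.

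Counts were rounded to whole reads for tests and left unrounded for CPM. The mRNA-seq values are the sum of 5′ UTR, CDS and 3′ UTR reads, and the Ribo-seq values are CDS reads. Differences were tested with edgeR 4.0.16 (quasi-likelihood test, TMM scaling, filterByExpr) over all 9 libraries of an assay, with Benjamini-Hochberg adjustment over all genes tested and calls at an adjusted p under 0.05. Translational efficiency was the interaction of assay and state over 18 libraries with the lysate as a block. DESeq2 1.42.0 was an alternative. Levels per kilobase used CDS lengths of the Gencode annotation for GRCh37, in place of the RefSeq protein lengths first planned. The scripts were tested on simulated data. The study's methods call the replicates independent. Its text speaks of earlier Ribo-seq data of senescent cells, and whether the old lysates were processed with the others was not stated. Every replicate pair differed by more than sampling noise (chi-square per degree of freedom 1.30 to 9.71).

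Ribo-seq depth (46239 to 1718521 CDS reads) limited the footprint tests, and the binomial and Poisson intervals cover counting error only. The intervals of log2 changes were drawn from the SE of the edgeR fit by a normal approximation. They can be narrower than its quasi-likelihood test allows. The 7 members, the partner list and the markers were chosen with earlier results of these data known. All members are named, as are their partners with a direct role in binding, degradation or transcription and the 3 genes nearest to each member in pattern. A partner gene and a sequence that fall under these rules are not reported here. Alternatives were the scaling, tool, filter, samples in the fit, block, reads counted, threshold, depth and each lysate left out. The fits without the 3 lysates that stood apart and the CDKN2A length of both frames were added after the data were seen.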

Additional observations from a re-analysis of the deposited data

Results flagged for a closer look

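CDKN2A mRNA was called in opposite directions in the comparisons with young cells, lower in ICM (log2 change -0.25) and higher in old (0.60). Tested directly, ICM was lower than old (log2 change -0.85, SE 0.09, edgeR adjusted p 1.28e-08), and the 3 ICM libraries (40.0 to 45.2 CPM) all lay below the 3 old ones (64.9 to 80.8 CPM). The call in ICM vs young did not hold with CDS reads alone.

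Footprints in the CDKN1A 3′ UTR, which enter no comparison of the report, were more frequent per library in every old than in any young library, where CDKN1A footprints as a whole were also higher. They numbered 43, 5 and 17 reads in old, or 20.0005, 13.7 and 15.9 RPM over all reads of the library (mean 16.5), and 2, 1 and 5 reads in young, or 12.6, 1.23 and 2.58 RPM. The ICM libraries had 0, 2 and 0 such reads, and the 2 reads of ICM replicate 2 stood at 19.9 RPM. As a share of the UTR and CDS footprints of CDKN1A they were 5.88%, 0.420% and 0.988% in young and 2.84%, 12.5% and 4.52% in old, so that young and old cells overlapped. The 3′ UTR share of all coding-gene footprints was also higher in old replicates 1, 2 and 3 (3.51%, 14.8% and 4.90%) than in young replicates 2 and 3 (1.94% and 1.40%), and was 12.4% in young replicate 1. The part of these library-wide shares in the CDKN1A value was not tested.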

How the results depend on the processing

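No called member changed direction under any alternative. The uncalled CDKN2A footprint change in ICM vs young (0.42) turned to -0.03 with the replicate block and to -0.67 without ICM replicate 1. In mRNA-seq the members called numbered 6 to 7, 7 and 5 to 6 in ICM vs young, old vs young and ICM vs old when each lysate was left out in turn. Ribo-seq counts moved more. In old vs young the members called, 2 in the reported fit, numbered 1 with DESeq2, 1 with the replicate block, 4 without the filter and 0 in thinned libraries, where only CDKN1A was tested. The partner list there, 19 in the reported fit, gave 10 with DESeq2, 29 with the compared groups only, 9 with the replicate block, 3 when thinned and 7 to 28 without single lysates. In ICM vs old the members called fell from 2 to 1 under RLE scaling, DESeq2, the compared groups only, the replicate block and thinning, and ranged from 1 to 3 without single lysates. The partner list fell from 6 to 3 with DESeq2, the replicate block and thinning. In ICM vs young the partner list, 14 in the reported fit, gave 3 when thinned, 9 to 19 without single lysates and 22 without the 3 lysates that stood apart. For translational efficiency, the single partner gene called in ICM vs young gave 4 at an adjusted p under 0.15, 3 with no replicate block, 0 under RLE scaling, without the filter, with the compared groups only, with CDS reads only and when thinned, and 0 to 2 without single lysates. In old vs young the member count rose from 0 to 1 at an adjusted p under 0.15, with the compared groups only and with no replicate block, and was 0 to 1 without single lysates, CDKN2A each time. The partner list rose from 0 to 2 at an adjusted p under 0.15, 1 under RLE scaling, 2 with the compared groups only, 5 with no replicate block, 0 to 2 without single lysates and 1 without the 3 lysates. With the CDKN2A length of both frames, the CDKN1A share of the 7 members moved to 67.9%, 82.7% and 94.4% of mRNA in young, old and ICM cells and to 78.1% of footprints in young cells, since a longer CDKN2A lowers its level. The cause of the other shifts was not tested, except that thinning and leaving out lysates change how many genes pass the filter.

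Replicates of the same number deviated together weakly or not at all (correlations -0.0995 to 0.130 in mRNA-seq and -0.0262 to 0.0665 in Ribo-seq). In mRNA-seq those of replicate 3 were all positive (0.130, 0.119 and 0.0518), and with CDS reads alone they reached 0.175. These values do not settle whether the numbers pair the states. With the replicate block, CDKN1C in ICM vs old passed in mRNA-seq (log2 change 0.54, edgeR adjusted p 0.0461), and CDKN2A lost its Ribo-seq calls in old vs young (1.03, adjusted p 0.0621) and ICM vs old (-1.06, adjusted p 0.140). Depth limits the footprint values of CDKN1B, CDKN1C, CDKN2B, CDKN2C and CDKN2D, which rest on at most 136 reads per state.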

Other observations

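CDKN2B-AS1, which had no read outside the non-coding column, stood at 0.957, 1.29 and 1.90 RPM in the young, 1.34, 0.947 and 1.116 in the old and 1.27, 1.40 and 1.56 in the ICM mRNA-seq libraries, so that the states overlapped. The summed mRNA of the proliferation genes MKI67, TOP2A and LMNB1 was 356 to 378 CPM in young, 67.6 to 77.04 CPM in old and 3.95 to 5.14 CPM in ICM. In Ribo-seq it was 515 to 752 CPM in young, 86.4 to 238 CPM in old and 13.3 to 173 CPM in ICM.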
